A study of Mus musculus with 44 samples.

Results

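A set of 10 cell cycle genes was followed in mouse kidney across the day in wild-type animals and in animals lacking the clock activator Bmal1. They are the mitotic inhibitor kinase Wee1, the cyclin-dependent kinase (CDK) inhibitors Cdkn1a and Cdkn1b, the D-type cyclins Ccnd1 and Ccnd2, and 5 genes of dividing cells (Ccna2, Ccnb1, Cdk1, Mki67 and Top2a). They were picked by name from 24733 genes with a value above 0, and all 10 were found. Of these, 8 averaged 1 TPM or more (a transcript abundance scaled for transcript length and library size) and entered the test over 12874 genes. Ccnb1 and Mki67, below that level, were taken from a fit of 17348 genes averaging 0.1 TPM or more.

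The groups were kidneys of 129SV mice aged 8 to 12 weeks, labelled WT or KO, all under night-restricted feeding, at zeitgeber time (ZT, hours after lights-on) 0, 4, 8, 12, 16 and 20. Each of the 12 groups held 2 libraries of polyadenylated RNA, A and B, so each genotype had 12. The series text gives the knockout as Bmal -/-. The allele, the sex of the animals and whether a library came from 1 animal or a pool are not given in the sources used here, so p-values measure the spread between these libraries. In whole kidney, fewer cells of a type and less RNA per cell cannot be told apart.

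Cells divide in a fixed order of phases driven by CDKs and their cyclins. D-type cyclins act in the G1 phase, cyclin A acts in DNA synthesis and G2, and cyclin B with CDK1 drives mitosis. WEE1 holds CDK1 inactive by phosphorylating it, and the p21 and p27 proteins encoded by Cdkn1a and Cdkn1b bind and inhibit cyclin-CDK complexes. Most tubule cells of the adult kidney are at rest. Wee1 is a textbook example of a clock-controlled cell cycle gene, activated by BMAL1 with CLOCK at E-box sequences, and p21 transcription is known to be repressed by REV-ERBα, activated by ROR receptors at the same sites, and induced by p53.

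Arntl, the gene encoding BMAL1, was measured at 0.295 to 12.9 TPM in WT and at 4.19 to 6.28 TPM in KO, so Arntl RNA was present in the knockout. Nr1d1, which encodes REV-ERBα and is activated by BMAL1, was at 1.23 to 3.46 TPM in 11 KO libraries. It was at 23.8 TPM in the library labelled KO ZT4 A, against 22.0 and 32.95 TPM in the WT libraries of that time. Cry1, a clock repressor, was at 1.03 TPM in that library and at 11.5 to 17.8 TPM in the 11 others. The library labelled KO ZT4 A therefore goes against its label in both genes, and results are given with and without it.

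Genotype differences are KO minus WT of log2(TPM + 0.1), with time in the model and p-values adjusted over all genes tested. On this scale 60.9% of genes were called at an adjusted p under 0.05, 50.9% higher and 10% lower in KO, with a median difference of 0.15 over all genes. Without the library labelled KO ZT4 A, 62.9% were called. After median-of-ratios scaling, which centres the libraries on their typical gene, 44.1% were called, 21.5% higher and 22.6% lower, with a median of 0.00. Of the 8 cell cycle genes tested, 2 were higher in KO (Cdkn1a and Cdkn1b), 2 lower (Wee1 and Ccnd1) and 4 were not called, a share of 50% against that background of 60.9%. Median-of-ratios scaling ended the call of Cdkn1b and no other.

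**Figure D1:**
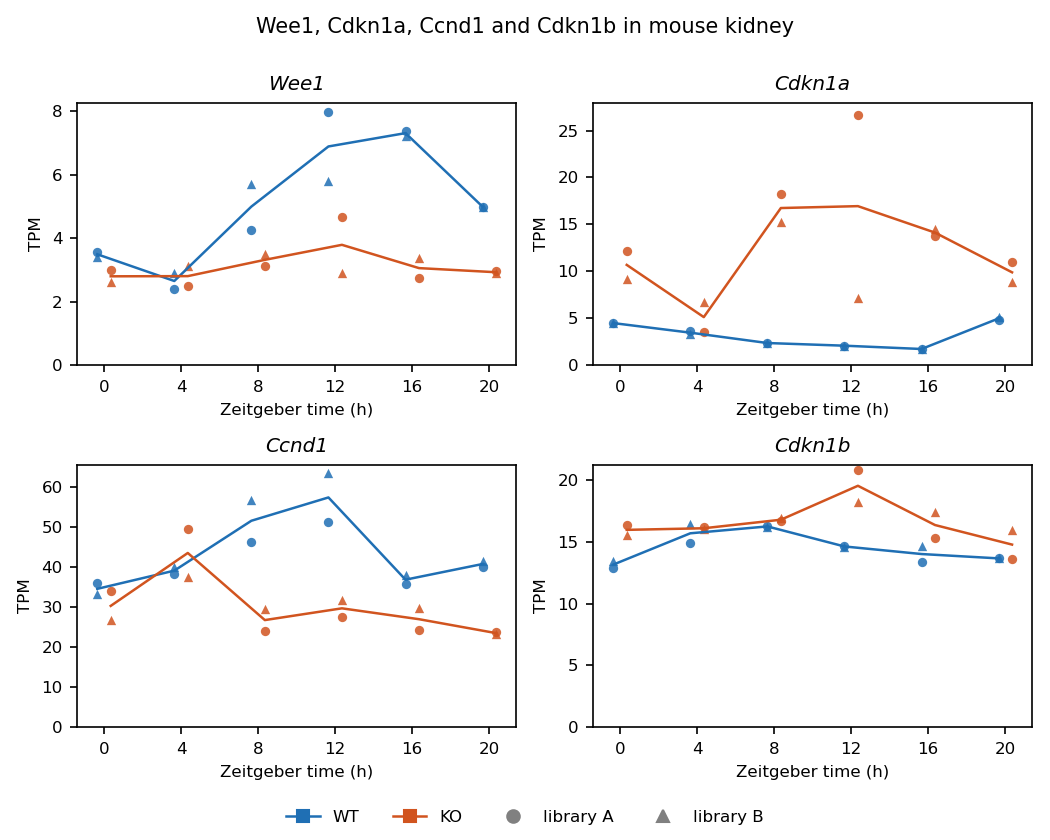
Level in TPM (vertical axis) against zeitgeber time in hours (horizontal axis) for the 4 genes with a genotype difference. Each point is 1 library (circle A, triangle B, WT blue, KO orange) and each line joins the means of 2 libraries. WT Wee1 climbs from 2.65 TPM at ZT4 to 7.31 TPM at ZT16 while KO Wee1 stays at 4.67 TPM or below, and KO Cdkn1a lies above WT at 5 of 6 times without overlap.

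Wee1 was lower in the knockout, with the largest difference at ZT16. Wee1 (ENSMUSG00000031016) lies on the plus strand at chr7:110122046-110143286 (GRCm38) and is represented by a single transcript. In WT it was at 3.56 and 3.42 TPM at ZT0, 2.41 and 2.89 at ZT4, 4.27 and 5.72 at ZT8, 7.99 and 5.79 at ZT12, 7.39 and 7.23 at ZT16, and 4.98 and 4.99 at ZT20. In KO it was at 2.98 and 2.61 TPM at ZT0, 2.48 and 3.12 at ZT4, 3.13 and 3.50 at ZT8, 4.67 and 2.90 at ZT12, 2.74 and 3.37 at ZT16, and 2.95 and 2.90 at ZT20. Both KO libraries lay below both WT libraries at 5 of the 6 times, the exception being ZT4, the trough of WT. Over all genes, 4.44% showed such a separation at 5 or more times in this direction. In the order of WT levels, ZT16 and ZT12 overlapped, as did ZT8 and ZT20, and ZT4 was lowest, beside a KO range of 2.48 to 4.67 TPM over all times.

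The WT mean was 5.05 ± 1.83 TPM and the KO mean 3.11 ± 0.57 TPM (SD, n = 12 each). The log2 difference was −0.61 (SE 0.12, adjusted p = 0.000231), and −0.63 (adjusted p = 0.000231) without the library labelled KO ZT4 A. A total of 455 genes were lower in KO by at least as much. Taken time by time, Wee1 was 2.36-fold lower in KO at ZT16 (adjusted p = 0.00178, where 4.47% of genes were called lower) and 1.82-fold lower at ZT12 (adjusted p = 0.00572, where 6.24% were). The ZT12 call was lost without WT ZT12 A (adjusted p = 0.0658) or KO ZT12 B (0.0594). The differences at ZT20 (−0.75, adjusted p = 0.0565), ZT8 (−0.56, 0.0782), ZT0 (−0.31, 0.319) and ZT4 (0.07, 0.869) were not called. Median-of-ratios scaling brought in ZT20 (−0.84, adjusted p = 0.0275) and ZT8 (−0.67, 0.0289), as did leaving out either KO ZT12 library for both times or either KO ZT4 library for ZT20.

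A 24-hour curve fitted to WT gave Wee1 a peak-to-trough range of 1.38 log2 units (SE 0.16, adjusted p = 5.02e-05) and a peak at ZT 14.5 h (SE 0.45), early in the dark phase. This was the only rhythm called among the 8 cell cycle genes tested in WT, where 13.7% of all genes were called. In KO the fitted range was 0.36 log2 units (SE 0.16, adjusted p = 0.351). No KO rhythm was called by limma among the 8 genes, against 3.64% of all genes, although Cdkn1b and Ccnd1 had an unadjusted p under 0.05. The difference between the curves reached 1.14 log2 units from its highest to its lowest point (adjusted p = 0.0465), a call shared by 0.629% of genes and by none of the other 7 cell cycle genes tested. That call was close to the threshold. When each library was dropped in turn, it held in 4 of 24 fits (adjusted p from 0.0104 to 0.111). The fit without the library labelled KO ZT4 A was among the 4 (0.0332, with 0.87% of genes called).

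Cdkn1a moved the other way and by more than any of the other 9 genes. Cdkn1a (ENSMUSG00000023067) lies on the plus strand at chr17:29090976-29100727. In WT the 2 libraries of a time were nearly equal, at 4.48 and 4.46 TPM at ZT0, 3.62 and 3.27 at ZT4, 2.36 and 2.33 at ZT8, 2.07 and 2.05 at ZT12, 1.69 and 1.72 at ZT16, and 4.79 and 5.13 at ZT20. In KO they were 12.2 and 9.17 TPM at ZT0, 3.53 and 6.68 at ZT4, 18.3 and 15.2 at ZT8, 26.7 and 7.17 at ZT12, 13.7 and 14.5 at ZT16, and 10.95 and 8.82 at ZT20. Both KO libraries lay above both WT libraries at 5 of 6 times, a separation at 5 or more times shown by 25.6% of genes. The highest KO means, at ZT8, ZT12 and ZT16, fell at the times when WT was lowest. The ZT12 mean rested on 1 library, and the other, at 7.17 TPM, was below the KO libraries of ZT0 and ZT20. The library labelled KO ZT4 A, at 3.53 TPM, was the only KO library inside the WT range of 1.69 to 5.13 TPM. The other 11 KO libraries all lay above all 12 WT libraries, as did 8.34% of genes.

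The WT mean of Cdkn1a was 3.16 ± 1.29 TPM and the KO mean 12.2 ± 6.16 TPM (SD, n = 12 each). The log2 difference was 1.86 (SE 0.27, adjusted p = 1.94e-05), a 3.62-fold rise, and 1.99 (SE 0.25, adjusted p = 3.52e-06) without the library labelled KO ZT4 A. A rise of at least this size was found in 63 genes. By time, the KO level was 6.87-fold higher at ZT8 (adjusted p = 0.00275, where 11.1% of genes were called higher), 6.47-fold at ZT12 (0.000504, 31.9%) and 7.87-fold at ZT16 (0.000831, 17%). The differences at ZT0 (1.22, adjusted p = 0.0625), ZT20 (0.97, 0.193) and ZT4 (0.49, 0.567) were not called. The ZT0 difference was called without either KO ZT4 or either KO ZT12 library (0.00767 to 0.0435), and the ZT20 difference without either KO ZT12 library (0.0288 and 0.0289). At ZT4 limma called 0% of genes, although 1637 had an unadjusted p under 0.05. Without the library labelled KO ZT4 A, 1488 genes were called at ZT4 and Cdkn1a differed there by 0.94 (adjusted p = 0.187).

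The spread within a time also differed between genotypes. The SD between the 2 libraries of a time, pooled over times, was 0.05 log2 units for Cdkn1a in WT and 0.63 in KO, against medians over all genes of 0.11 and 0.17. KO ZT12, with 26.7 and 7.17 TPM, contributed the widest pair. In the fit of both genotypes, which shares 1 spread between them, the WT rhythm of Cdkn1a (1.40 log2 units, peak at ZT 23.9 h) was not called (adjusted p = 0.072). In a fit of the 12 WT libraries alone it was called (adjusted p = 0.0039, 22.1% of genes), as were those of Wee1, Ccnd1 (0.0282) and Cdkn1b (0.0306). In KO the fitted range was 1.11 log2 units with a peak at ZT 13.6 h (adjusted p = 0.24). The 2 curves differed by 2.45 log2 units, which did not pass the test (adjusted p = 0.118) except without KO ZT12 B (0.033).

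Cdkn1a has 3 annotated transcripts in the table, which start at different places. The transcript starting at 29093769 held 93.2% of the TPM of the gene, with a mean of 2.93 ± 1.21 TPM in WT and 11.4 ± 5.85 TPM in KO. The transcript starting upstream at 29090979 held 2.60% of the TPM, at 0.114 ± 0.106 and 0.288 ± 0.188 TPM. The third, which starts inside the gene, held 4.18%. Nearly all of the Cdkn1a signal in both genotypes was therefore assigned to the transcript of the downstream start. The 250 bases before each of these starts are shown, 5′ to 3′ in the direction of the gene, because 1 start carried the rise and the other carried little signal. The sequences are those of RefSeq (GRCm38.p6). Capitals mark GC boxes (GGGCGG on either strand), the one searched motif that occurred.
Cdkn1a downstream start, chr17:29093519-29093768: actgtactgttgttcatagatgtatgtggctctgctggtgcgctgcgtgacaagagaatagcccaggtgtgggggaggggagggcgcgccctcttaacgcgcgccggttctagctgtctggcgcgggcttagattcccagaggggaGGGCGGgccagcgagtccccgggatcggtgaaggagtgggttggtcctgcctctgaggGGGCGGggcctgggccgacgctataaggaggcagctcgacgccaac
Cdkn1a upstream start, chr17:29090729-29090978: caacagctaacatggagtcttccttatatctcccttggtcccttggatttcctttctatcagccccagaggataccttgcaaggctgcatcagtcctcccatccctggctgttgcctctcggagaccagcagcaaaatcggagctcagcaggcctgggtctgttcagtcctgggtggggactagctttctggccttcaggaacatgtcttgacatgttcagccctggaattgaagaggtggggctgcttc
The downstream window held 2 GC boxes, from 104 to 99 and from 46 to 41 bases before the start, and the upstream window held none. A GC box was present in 33% of 32536 windows of this length. Neither window held the E-box CACGTG (6.04% of windows), the REV-ERB and ROR half-site AGGTCA (14.04%), the CCAAT box (33.8%) or the CHR element TTTGAA (15.8%), each searched on both strands. Binding sites of p53 were not searched for, so the lack of capitals says nothing about them. A search of 250 bases does not cover sites elsewhere in a gene.

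Cdkn1b, the p27 inhibitor (ENSMUSG00000003031, chr6:134920401-134925513), was slightly higher in KO as deposited. Its WT libraries ranged from 12.9 to 16.5 TPM (median 14.6) and its KO libraries from 13.6 to 20.8 TPM (median 16.3), so the genotypes overlapped. Both KO libraries lay above both WT libraries at 4 of 6 times, as did 40% of genes at 4 or more. Both libraries of KO ZT12, at 20.8 and 18.25 TPM, were above all WT libraries. The log2 difference was 0.18 (SE 0.045, adjusted p = 0.00154), close to the median of 0.15 over all genes. After median-of-ratios scaling it was 0.03 (adjusted p = 0.513). At single times it was called only at ZT12 (0.41, adjusted p = 0.0039).

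Ccnd1, encoding cyclin D1, which acts in G1 with CDK4 and CDK6, was the most abundant of the 10 and was lower in KO. Ccnd1 (ENSMUSG00000070348, minus strand, chr7:144929931-144939925) was at 35.9 and 33.2 TPM at ZT0 in WT, 38.1 and 39.98 at ZT4, 46.3 and 56.7 at ZT8, 51.2 and 63.4 at ZT12, 35.6 and 37.997 at ZT16, and 40.1 and 41.4 at ZT20. In KO it was at 33.9 and 26.6 TPM at ZT0, 49.5 and 37.4 at ZT4, 23.9 and 29.5 at ZT8, 27.5 and 31.8 at ZT12, 24.1 and 29.7 at ZT16, and 23.7 and 23.2 at ZT20. The KO libraries lay below both WT libraries without overlap at 4 of 6 times, from ZT8 to ZT20, a separation at 4 or more times that 7.57% of genes showed. The highest KO value, 49.5 TPM, was that of the library labelled KO ZT4 A.

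The Ccnd1 means were 43.3 ± 9.32 TPM in WT and 30.1 ± 7.56 TPM in KO (SD, n = 12 each). The log2 difference was −0.53 (SE 0.11, adjusted p = 0.000343), a level 1.45-fold lower, and −0.60 (adjusted p = 2.9e-05) without the library labelled KO ZT4 A. KO was 1.93-fold lower at ZT8 (adjusted p = 0.00384, where 3.44% of genes were called lower), 1.92-fold at ZT12 (0.000828) and 1.73-fold at ZT20 (0.0199, 1.33%). The ZT8 call was lost without KO ZT8 A (0.0727), and the ZT20 call without any 1 of its 4 libraries (0.0811 to 0.138). The ZT16 difference of −0.46 (adjusted p = 0.0559) was called after median-of-ratios scaling (0.0334) and without either KO ZT0 library, either KO ZT4 library or KO ZT16 B (0.037 to 0.0491). The fitted WT rhythm peaked at ZT 10.5 h with a range of 0.61 log2 units (adjusted p = 0.0761). The KO range was 0.53 (adjusted p = 0.198), and the curves did not differ by the test (adjusted p = 0.294).

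Ccnd2, encoding cyclin D2 (ENSMUSG00000000184), was low and was not called. It ranged from 1.64 to 2.48 TPM in WT and from 1.48 to 3.27 TPM in KO, with medians of 2.14 and 2.12. The log2 difference was 0.03 (SE 0.10, adjusted p = 0.823) and −0.12 (adjusted p = 0.299) after median-of-ratios scaling. Whether the 2 cyclins differed in response was not tested.

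**Figure D2:**
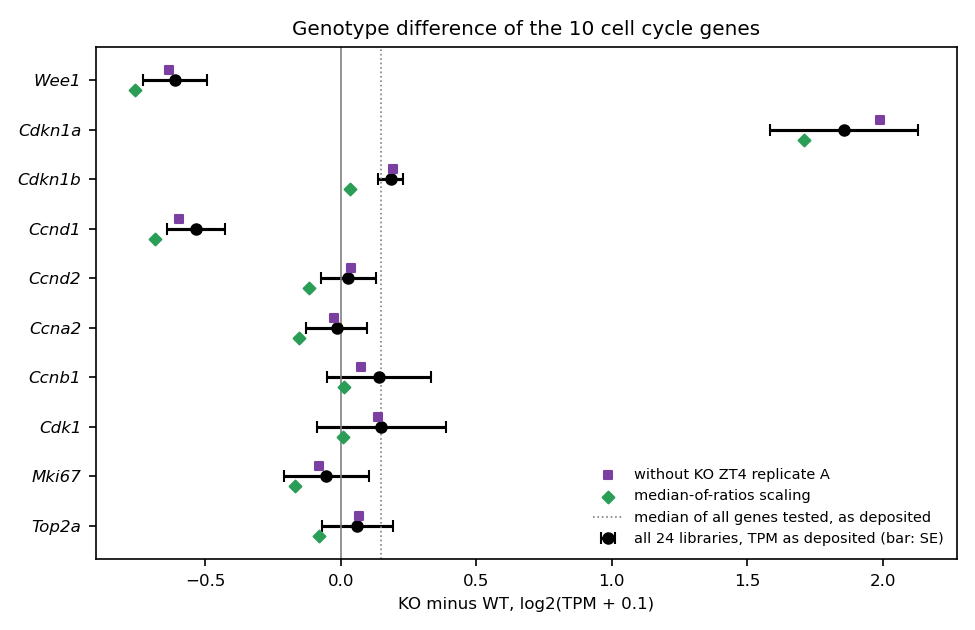
KO minus WT difference on the log2(TPM + 0.1) scale (horizontal axis) for each gene. Black points with bars are estimates with their SE from all 24 libraries, purple squares leave out the library labelled KO ZT4 A, green diamonds use median-of-ratios scaling, and the dotted line is the median of all genes, 0.15. Cdkn1a lies far to the right at 1.86, Wee1 lies at −0.61 to −0.76 and Ccnd1 at −0.53 to −0.68 over the 3 settings, and the other estimates lie between −0.17 and 0.19.

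The 5 genes of dividing cells were low in both genotypes, and none differed by the test. Ccna2 encodes cyclin A2, Ccnb1 cyclin B1, Cdk1 the mitotic kinase that WEE1 inhibits, Mki67 the Ki-67 antigen of cycling cells, and Top2a the topoisomerase that untangles chromosomes. Ccna2 ranged from 0.952 to 1.58 TPM in WT (median 1.09) and from 0.687 to 1.67 in KO (median 1.16). Cdk1 ranged from 0.689 to 3.62 TPM in WT (median 1.59) and from 0.765 to 2.51 in KO (median 1.65). Top2a ranged from 0.927 to 2.07 TPM in WT (median 1.41) and from 0.989 to 2.92 in KO (median 1.50). The ranges of the genotypes overlapped in all 3, with the highest value in KO for Ccna2 and Top2a and in WT for Cdk1.

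The log2 differences were −0.01 for Ccna2 (SE 0.11, adjusted p = 0.923), 0.15 for Cdk1 (SE 0.24, 0.601) and 0.06 for Top2a (SE 0.13, 0.699). Ccnb1 ranged from 0.314 to 0.979 TPM in WT (median 0.539) and from 0.296 to 1.47 in KO (median 0.573), with a difference of 0.14 (SE 0.19, adjusted p = 0.558). Mki67 ranged from 0.175 to 0.546 TPM in WT (median 0.358) and from 0.20 to 0.732 in KO (median 0.291), with a difference of −0.05 (SE 0.16, adjusted p = 0.799). None of these 5 was called at any single time or for a rhythm in either genotype. The standard errors show how wide a difference could go unseen, widest for Cdk1. Part of the summed level of 4 of these genes came from transcripts annotated as non-coding. The main coding transcript held 27.3% of the TPM of Top2a, 53.7% of Ccna2, 51.7% of Cdk1 and 35.1% of Ccnb1. Further coding transcripts held 12.4% and 11.8% of the TPM of Ccnb1 and 10.0% and 1.21% of that of Cdk1.

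**Figure D3:**
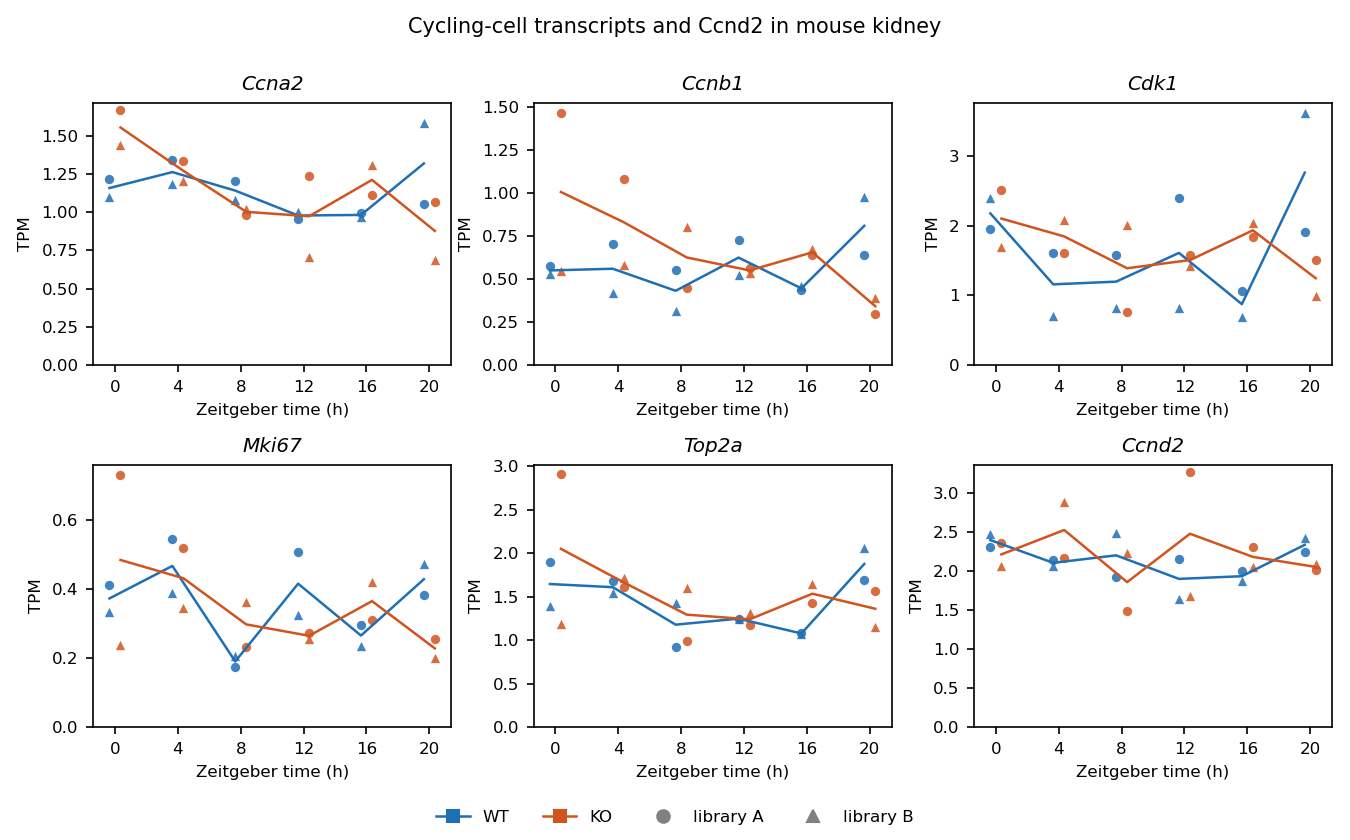
Level in TPM (vertical axis, a separate scale for each gene) against zeitgeber time in hours (horizontal axis) for the 5 genes of dividing cells and Ccnd2. Each point is 1 library (circle A, triangle B, WT blue, KO orange) and each line joins the means of 2 libraries. The KO ZT0 circle is the highest point for Ccna2 (1.67 TPM), Ccnb1 (1.47), Mki67 (0.732) and Top2a (2.92), and over all times the ranges of the genotypes overlap for each of the 6 genes.

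One library stood above the rest in these genes. KO ZT0 replicate A held the highest of 24 values for Ccna2, Ccnb1, Mki67 and Top2a, and for Cdk1 its 2.51 TPM was exceeded only by WT ZT20 replicate B at 3.62 TPM. Its partner KO ZT0 replicate B was at 1.44 TPM for Ccna2, 0.547 for Ccnb1, 0.237 for Mki67 and 1.18 for Top2a. Over a list of 25 G2 and mitosis genes the summed level was 42.7 TPM in replicate A and 25.5 TPM in replicate B. The sum lay between 16.3 and 28.5 TPM in the WT libraries, so of all KO libraries only replicate A lay above the WT range. At ZT0 replicate B was also above both WT libraries (24.3 and 21.2 TPM). Both KO libraries lay above both WT libraries at ZT4, ZT8 and ZT16 too, and the genotypes overlapped at ZT12 and ZT20. Of all single genes, 40% showed such a separation at 4 or more of 6 times. The median sum was 25.1 TPM in KO and 20.2 TPM in WT, a difference that was not tested. KO ZT0 replicate A had the highest summed level of the erythroid markers (2543 TPM, WT 824 to 2084), of the 2 stromal markers (24.5 TPM, WT 9.29 to 16.1), of the 3 endothelial markers (55.6 TPM, WT 29.7 to 42.2) and of the 2 podocyte markers (42.6 TPM, WT 17.6 to 30.8). Its partner was above all WT libraries for the erythroid (2172 TPM) and podocyte (33.3 TPM) markers too. The KO median was itself above all WT libraries for the podocyte (35.5 TPM) and endothelial (42.9 TPM) markers. For the erythroid (1590 TPM) and stromal (12.1 TPM) markers it was within the WT range. The part of these markers in the high values was not tested.

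Promoter windows of Ccnb1, Cdk1, Mki67 and Top2a are shown because these genes were high together in that library. Ccna2, the fifth, has no entry. The Ccnb1 window precedes the start of a transcript that held 11.8% of the TPM of the gene. The Ccnb1 transcript with the most TPM, 35.1%, starts further downstream at 100786402. Capitals mark CCAAT boxes (CCAAT), CHR elements (TTTGAA), GC boxes (GGGCGG) and the half-site AGGTCA, each on either strand. The sequences run 5′ to 3′ toward the start and come from RefSeq (GRCm38.p6).
Ccnb1, minus strand, chr13:100786487-100786736: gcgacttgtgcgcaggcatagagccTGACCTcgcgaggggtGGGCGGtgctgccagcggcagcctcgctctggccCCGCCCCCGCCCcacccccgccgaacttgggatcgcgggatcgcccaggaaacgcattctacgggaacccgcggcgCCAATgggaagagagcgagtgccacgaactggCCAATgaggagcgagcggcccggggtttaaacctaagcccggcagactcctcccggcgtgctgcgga
Cdk1, minus strand, chr10:69352913-69353162: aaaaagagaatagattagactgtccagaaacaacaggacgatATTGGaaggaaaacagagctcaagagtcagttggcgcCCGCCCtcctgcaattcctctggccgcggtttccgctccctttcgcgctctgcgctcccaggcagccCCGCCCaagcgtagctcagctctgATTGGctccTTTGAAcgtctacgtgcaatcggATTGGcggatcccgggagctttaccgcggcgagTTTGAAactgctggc
Mki67, minus strand, chr7:135716380-135716629: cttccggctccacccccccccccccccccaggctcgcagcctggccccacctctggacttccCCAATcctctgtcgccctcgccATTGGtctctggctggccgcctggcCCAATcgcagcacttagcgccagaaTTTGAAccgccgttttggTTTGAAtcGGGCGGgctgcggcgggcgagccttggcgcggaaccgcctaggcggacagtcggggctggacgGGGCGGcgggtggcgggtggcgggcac
Top2a, minus strand, chr11:99024190-99024439: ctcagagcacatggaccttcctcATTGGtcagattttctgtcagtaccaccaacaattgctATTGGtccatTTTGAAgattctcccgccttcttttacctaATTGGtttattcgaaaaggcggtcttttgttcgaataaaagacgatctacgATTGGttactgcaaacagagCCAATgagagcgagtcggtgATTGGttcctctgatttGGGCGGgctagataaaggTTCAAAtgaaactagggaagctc
Cdk1 held 3 CCAAT boxes, 2 CHR elements and 2 GC boxes. Mki67 held 3, 2 and 2, and Top2a 6, 2 and 1. Ccnb1 held 2 CCAAT boxes, no TTTGAA, 3 GC boxes and 1 AGGTCA, so TTTGAA was not common to all 4. Only this exact sequence was searched for, so other forms of the CHR element could be present. None of the 4 held CACGTG. The CHR element was present in 15.8% of all windows and the CCAAT box in 33.8%, and a match is a description of letters only. Of the 10 genes, 6 had an entry in the promoter table, and Wee1, Ccnd1, Ccnd2 and Ccna2 had none.

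The wider cell cycle machinery is described through 7 lists, with the counts of tested genes higher and lower in KO set against 50.9% and 10% of all genes. Among G1 and S cyclins and kinases, 7 of 9 were tested, 5 were higher and 1, Ccnd1, was lower (median 0.19). Cyclin D3 (Ccnd3) rose from 45.96 ± 4.67 to 66.2 ± 9.22 TPM (0.52, adjusted p = 7.21e-06), and its partner kinase Cdk4 from 64.5 ± 5.97 to 73.9 ± 5.87 TPM (0.20, 0.00119). Cdk7, the kinase that activates other CDKs, rose by 0.19 (adjusted p = 0.00377). Ccnd3 and Ccnd1 therefore moved in opposite directions. Ccnd3 had the higher mean of the 2 in both genotypes (45.96 against 43.3 TPM in WT, 66.2 against 30.1 TPM in KO). After median-of-ratios scaling only Ccnd3 was called higher and Ccnd1 lower, with Cdk4 (adjusted p = 0.396) and Cdk7 (0.496) no longer called.

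All 6 CDK inhibitors were tested, with 5 higher and 1 lower in KO (median 0.22). Beside Cdkn1a and Cdkn1b, p15 (Cdkn2b) rose by 0.73, from 1.43 ± 0.56 to 2.44 ± 0.99 TPM (adjusted p = 0.00576), p57 (Cdkn1c) rose by 0.21 (adjusted p = 0.00201) and the CDK4 and CDK6 inhibitor p19 (Cdkn2d) by 0.22 (0.000499). Cdkn2c, encoding the related p18, was the lower one at −0.18 (adjusted p = 0.0356). It also had a called 24-hour rhythm in WT (0.61 log2 units, peak at ZT 8.76 h, adjusted p = 0.0083) and in KO (0.53, peak at ZT 4.99 h, adjusted p = 0.0487). The KO call was close to the threshold. After median-of-ratios scaling 2 inhibitors were higher and 1 lower, and Cdkn1c (adjusted p = 0.375) and Cdkn2d (0.233) were not called.

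Of 7 genes that set the inhibitory phosphorylation of CDK1 and CDK2, 4 were tested, 1 higher and 1 lower (median 0.13). The lower gene was Wee1. The higher gene was Cdc25a, a phosphatase that removes the phosphate WEE1 adds, which went from 2.63 ± 0.35 to 3.30 ± 0.44 TPM (0.32, adjusted p = 0.00142). No gene of this list was called higher after median-of-ratios scaling (Cdc25a, adjusted p = 0.055).

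Of 20 DNA replication genes, 18 were tested, 9 higher and 2 lower (median 0.26). The ribonucleotide reductase subunit Rrm1 rose from 2.77 ± 0.26 to 4.29 ± 0.52 TPM (0.61, adjusted p = 1.16e-06), with no overlap at any of the 6 times (9.6% of genes). The helicase subunits Mcm2 (0.42, adjusted p = 1.83e-05) and Mcm4 (0.38, 5.42e-05) and thymidylate synthase, Tyms (0.47, 2.43e-05), also rose. The lower genes, Mcm6 at −0.30 and thymidine kinase Tk1 at −0.39, are named because they are the only ones called lower. After median-of-ratios scaling 6 were higher and 2 lower.

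Of 25 G2 and mitosis genes only 8 were tested, and 3 were higher and none lower (median 0.25). Kif23, a motor protein of cell division, was at 0.882 ± 0.199 TPM in WT and 1.91 ± 0.63 TPM in KO (0.99, adjusted p = 2.39e-05). Its WT mean was below 1 TPM, so it entered the test through its KO level. The spindle checkpoint gene Mad2l1 (0.53, adjusted p = 0.00506) and Prc1 (0.45, 0.0215), which bundles the microtubules of the dividing spindle, were the other two. After median-of-ratios scaling Kif23 and Mad2l1 stayed called and Prc1 did not (adjusted p = 0.131, and 0.0539 with no time in the model). Among 11 RB and E2F genes, 9 were tested, and 4 were higher and none lower (median 0.18), or 2 and 1 after that scaling. They were Rbl1 (0.43), Rb1 (0.35), Rbl2 (0.25) and E2f4 (0.18), which encode the RB family of growth-restraining proteins and a repressive E2F partner. Rbl2 (adjusted p = 0.0811) and E2f4 (0.605) were the calls lost to that scaling.

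Of 16 p53 target genes, 15 were tested, 4 higher and 2 lower (median 0.07). Sesn1 rose by 0.39 (adjusted p = 0.000136), Btg2 by 0.37 (0.000213) and Zmat3 by 0.20 (0.0116). Plk2 fell by 0.31 (adjusted p = 0.0148, and 0.0551 with no time in the model). Mdm2, the p53 regulator that is itself a p53 target, was at 17.96 ± 1.75 TPM in WT and 17.6 ± 1.18 TPM in KO (−0.02, adjusted p = 0.631). No gene of this list rose as far as Cdkn1a. After median-of-ratios scaling 2 were higher and 6 lower, with Zmat3 no longer called (adjusted p = 0.475). The counts of all 7 lists as deposited were the same without the library labelled KO ZT4 A.

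Outside the 10 genes, called WT rhythms in the lists were those of Cdk2 (peak at ZT 6.59 h), Cdkn2c, Tyms (ZT 23.2 h), E2f6 (ZT 21.5 h), Rbl2 (ZT 8.22 h), Bax (ZT 2.04 h) and Plk2 (ZT 6.11 h). That of Cdk2 was lost without any 1 of 6 WT libraries, with adjusted p of up to 0.111. With time as a 6-level factor the calls of Cdk2 (adjusted p = 0.106), Cdkn2c (0.106), Tyms (0.106), Rbl2 (0.0692), Bax (0.0902) and Plk2 (0.113) were lost, and that of E2f6 held. None of these had a called rhythm difference between genotypes. In WT, rhythms were called for 1 of 7 G1 and S genes, 1 of 6 CDK inhibitors and 1 of 18 DNA replication genes. The counts were 0 of 8 G2 and mitosis genes, 2 of 9 RB and E2F genes and 2 of 15 p53 targets. Wee1 was the 1 of 4 called in the list of inhibitory phosphorylation, and over all genes 13.7% were called.

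**Figure D4:**
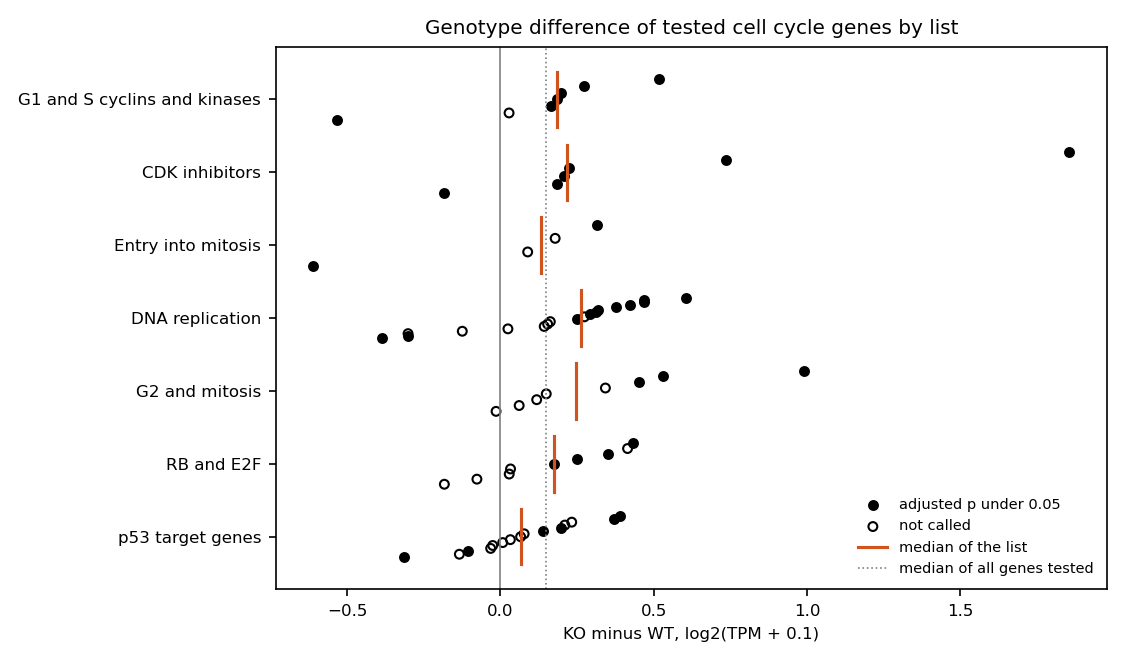
KO minus WT difference on the log2(TPM + 0.1) scale (horizontal axis) for each tested gene of the 7 lists (rows). Filled points were called at an adjusted p under 0.05 and open points were not, the orange bar is the median of a list and the dotted line the median of all genes, 0.15. Cdkn1a at 1.86 is the rightmost point, and Wee1 at −0.61 and Ccnd1 at −0.53 are the leftmost.

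Among the genes most like Wee1 over the 24 libraries, by Pearson correlation of log2(TPM + 0.1), were Nampt (r = 0.953), Tspan4 (0.905), Herpud1 (0.855) and Bnip3 (0.828). Nampt, the rate-limiting enzyme of NAD salvage and itself a known clock target, peaked in WT at ZT 14.3 h and had a called rhythm difference (adjusted p = 0.0263). Those most like Cdkn1a were Slc31a2 (0.95), Cmtm7 (0.949), Acsl5 (0.948), Il1r1 (0.941) and Parm1 (0.94). Their genotype differences, from 0.48 to 0.80 log2 units, were all smaller than that of Cdkn1a. Among those most like Cdk1 were Sparc (0.751), Loxl2 (0.716), Emid1 (0.693) and 0610010F05Rik (0.69). These correlations describe libraries that share genotype, time and the library labelled KO ZT4 A.

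Some markers of kidney cell types also differed between genotypes. Their counts stand beside 50.9% of all genes called higher and 10% lower as deposited. After median-of-ratios scaling these shares were 21.5% and 22.6%. All 4 distal tubule and collecting duct markers were higher in KO, with sums of 356 to 492 TPM in WT and 394 to 742 TPM in KO, the lowest KO value being that of the library labelled KO ZT4 A. Both podocyte markers were higher (17.6 to 30.8 TPM against 30.6 to 42.6), and 2 of 3 tested immune markers, Csf1r and Adgre1, were lower (sum of 5 markers, 16.04 to 23.4 against 13.6 to 19.0 TPM). Of 3 proximal tubule markers 1 was higher, of 2 loop of Henle markers 1 was higher and 1 lower, and of 3 endothelial markers 2 were higher. Of 4 erythroid markers 3 were higher and 1 lower, and neither of 2 stromal markers was called. After median-of-ratios scaling the counts of higher and lower were 0 and 1 for erythroid, 1 and 1 for endothelial, 1 and 1 for proximal tubule and 0 and 3 for immune markers. They were as before for the distal tubule and collecting duct, podocyte, loop of Henle and stromal markers. No adrenal cortex marker reached 1 TPM, and the defining Cyp11b1 was at most 0.0399 TPM. Of the tubular injury markers, Lcn2 differed by 0.59 (adjusted p = 0.0526), Havcr1 by −1.39 (0.000735) and Krt20 by 0.44 (0.239), the last 2 in the fit from 0.1 TPM. The part of these shifts in the cell cycle results was not tested.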

How the data were processed

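Polyadenylated RNA was measured in 24 kidney libraries. Transcript abundances were computed by the authors with kallisto 0.42.4, with builds mm10 and GRCm38 named, per the submitters' processing notes, and were deposited as TPM per transcript. Column sums were 999999 to 1000001. Library depth cannot be read from TPM, and counting intervals were not made. Groups, times and replicate letters came from the labels. The 4C-seq libraries of the series were not used here.

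Transcripts were summed to genes through GENCODE M21 by Ensembl identifier without version. Of 88198 transcripts, 86119 matched, and the rest held 1.35% to 2.24% of TPM. Mitochondrial genes held 32.3% to 42.5%. limma 3.58.1 (lmFit, eBayes with trend and robust) in R 4.3.3 was run on log2(TPM + 0.1), with Benjamini-Hochberg adjustment over the 12874 genes averaging 1 TPM or more and a threshold of 0.05. A fold is on the same scale and understates changes of low genes. The genotype difference had time as a 6-level factor, rhythms were moderated F tests of a 24-hour cosine and sine per genotype, and differences at each time used 12 group means. Single coefficients were tested two-sided. The code was first tested on simulated data. The alternatives are listed with their effects in the closing section.

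The 10 genes, the lists and the rule for naming genes (up to 4 per list with the smallest p-values for the genotype difference, the WT rhythm or the rhythm difference, and the 5 genes most correlated with Wee1, Cdkn1a and Cdk1) were chosen with earlier results of these data known. Some of the correlated genes are not reported here. Cdkn2b, Mcm6, Tk1, Mdm2 and the marker genes named singly were chosen after their values were seen. Promoter windows are the 250 bases before a RefSeq start.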

Additional observations from a re-analysis of the deposited data

Results flagged for a closer look

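The WT and KO curves of Wee1 differed by 1.14 log2 units from the highest to the lowest point of their difference. The adjusted p was 0.0465 by the limma test of the difference itself, close to the threshold. The fitted range was 1.38 log2 units in WT and 0.36 in KO. Over all genes 81 were called in this test, and 1758 had an unadjusted p under 0.05. The Wee1 call held in only 4 of 24 fits that left out 1 library. It was lost in the limma test with time as a 6-level factor (adjusted p = 0.298).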

How the results depend on the processing

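The genotype calls of Wee1, Cdkn1a and Ccnd1 kept their direction and stayed past the threshold under every alternative run for them. These were pseudocounts of 1 and 0.01 TPM, filters at 0.1 and 5 TPM or none (Wee1 was not tested at 5 TPM), median-of-ratios scaling, a replicate block, eBayes without trend and robust, no time term, and leaving out each library. The call of Cdkn1b was lost under median-of-ratios scaling alone. The number of cell cycle genes called for genotype was 4 in each fit that left out 1 library, with 7410 to 8101 genes called in all.

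Counts of rhythms depended on the model. WT rhythms numbered 1761, 576 with time as a 6-level factor, 2843 in WT libraries alone, and 1194 to 2140 with 1 library left out. KO rhythms numbered 468, 295 with no filter, 28 with the factor, 12 in KO libraries alone, and 272 to 626 with 1 library left out, with 272 without KO ZT0 B and 297 without KO ZT8 B. No cell cycle gene of the 10 was called for a KO rhythm in any of these fits, though 2 of 8 had an unadjusted p under 0.05. Rhythm differences numbered 81, 43 with no filter, 23 with the factor, and 37 to 112 with 1 library left out, with 40 and 37 without WT ZT4 A and B, 47 without WT ZT12 B, 39 and 53 without WT ZT16 A and B, and 50 without KO ZT8 B. Genes called at 1 or more single times numbered 6258, and 4735 to 6993 with 1 library left out.

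Among the cell cycle genes, 1 was called for a WT rhythm, against 0 with the filter at 5 TPM, 2 after median-of-ratios scaling, 4 in WT libraries alone, and 1 to 3 with 1 library left out (3 without the library labelled KO ZT4 A, and 2 without KO ZT8 A, KO ZT12 A or KO ZT12 B). The rhythm difference call of Wee1 (1 gene, 0 to 1 with 1 library left out, held only without WT ZT8 B, WT ZT12 B, KO ZT12 A or the library labelled KO ZT4 A) fell to 0 with no filter (adjusted p = 0.0934), the filter at 0.1 TPM (0.0612), eBayes without trend (0.0592) and the factor (0.298), and at 5 TPM Wee1 was not tested. It had adjusted p = 0.0134 after median-of-ratios scaling. The cause of these losses was not tested.

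Differences that changed sign were small and uncalled. After median-of-ratios scaling they were −0.117 for Ccnd2, −0.0804 for Top2a and −0.0528 for Wee1 at ZT4. With 1 library left out, Ccnd2 ranged from −0.0419 to 0.0778, Ccna2 from −0.0544 to 0.0502, Mki67 from −0.143 to 0.0108 and Top2a from −0.0185 to 0.126. At ZT4 Wee1 ranged from −0.085 to 0.235, negative without WT ZT4 A or KO ZT4 B. Ccnd1 at ZT4 was −0.0606 without the library labelled KO ZT4 A. Of 2791 alternatives of 86 single-gene results, 2687 kept direction and side of the threshold, 57 lost a call, 31 gained one and 16 changed sign.

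The replicate letters did not pair the libraries. Over 66 pairs of groups the correlation of same-letter deviations ran from −0.32 to 0.34, with 21 over 0.1. With the replicate block, 7873 genes were called for genotype, 1842 for a WT rhythm, 525 for a KO rhythm, 76 for a rhythm difference and 6384 at 1 or more times. The block left 0 cell cycle genes with a rhythm difference (Wee1, adjusted p = 0.0589). TPM keeps no depth, so how far read number limits the low genes is unknown.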
